A study of Arabidopsis thaliana with 9 samples.

Results

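The mitochondrial genome of Arabidopsis thaliana was examined in RNA sequencing libraries of 3 tissues of the Col-0 accession: stamens (the male group of the labels), gynoecium (the female group) and leaf. Each group holds 3 libraries, all wild-type Col-0 with no treatment named, all given the stage of flower bud differentiation, and made from total RNA of immature floral buds or leaves. The members are the loci of the count table whose identifier begins with ATMG and whose counts over the 9 libraries sum to at least 10. These are 77 of the 152 mitochondrial loci listed and of 32833 loci in all. Another 23 mitochondrial loci had between 1 and 9 counts and 52 had none. The members nearest to the threshold were ATMG01220 with 10 counts and ATMG01340 with 11, and the nearest loci outside it were ATMG00400 and ATMG00665 with 8 each.

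Plant mitochondria keep a small genome of their own, which encodes part of the respiratory chain, part of the mitochondrial ribosome, the ribosomal RNAs, some transfer RNAs and the proteins that attach haem to cytochrome c. Most subunits of the same complexes are nuclear genes, so that each complex is built from products of both genomes. Several mitochondrial genes are scattered in pieces over the genome, and their transcripts are joined by trans-splicing. Flower buds, and the tapetum of the anther above all, are known as tissues rich in mitochondria, and rearranged mitochondrial genes underlie many forms of cytoplasmic male sterility in crops.

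The files name loci by identifier alone. At each locus the count, the deposited FPKM (fragments scaled for locus length and library total) and the library total together gave a length that was whole to within 4.5e-11 bases. A total of 19 members had a length that matched 1 mitochondrial gene of the RefSeq annotation, or 1 piece of a split gene, and no other. Notes on nuclear genes of the same annotation gave a protein name for 23 members, 6 of which also had a length match. In this way 29 members were placed in a class, and 48 have no function annotated in the sources used here and are given by identifier. The classes hold 8 loci of complex I (NADH dehydrogenase), 4 of complex IV (cytochrome c oxidase), 5 of complex V (ATP synthase), 4 of cytochrome c maturation, 6 of ribosomal proteins, 1 ribosomal RNA and 1 fragment of a plastid gene. No member belongs to complex III: the locus noted as apocytochrome b, ATMG00220, had 0 counts, and ATMG00590, noted as cytochrome b, had 7.

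Library totals ran from 16042169 to 18756860 counts. All 5 stamen markers (AP3, PI, AMS, MS2 and QRT3) were highest in stamens, and all 4 gynoecium markers (STK, INO, CRC and SHP1) were highest in gynoecium. All of these were at 0 in leaf, where RBCS1A and LHCB3 were highest. Chloroplast loci took 0.905 ± 0.00495% of the counts in stamens, 0.928 ± 0.00699% in gynoecium and 5.90 ± 0.0432% in leaf (SD, n = 3 each). Nothing in the labels ties each library to its own plants, and the p-values below therefore measure only how far these libraries spread, which may be technical. Whether poly(A) RNA was selected or ribosomal RNA removed is not given in the sources used here.

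Mitochondrial loci took a larger share of the counts in both floral organs than in leaf. The 77 loci together made up 0.672, 0.638 and 0.619% of all counts in the stamen libraries, 0.530, 0.506 and 0.535% in the gynoecium libraries, and 0.248, 0.233 and 0.237% in the leaf libraries. The 3 groups did not overlap. In bulk tissue a change in the number of cells of a type, in mitochondria per cell and in RNA per mitochondrion cannot be told apart.

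Most of these counts belonged to 1 locus. ATMG00020, which has no function annotated here and a length of 2568 bases, held 84.1 ± 0.532% of the mitochondrial counts in stamens, 79.1 ± 0.356% in gynoecium and 87.1 ± 0.134% in leaf (SD, n = 3 each). The RefSeq gene for the large mitochondrial ribosomal RNA, rrn26, is 3169 bases long, and 0 mitochondrial loci of the table have that length. Length thus named no locus as rrn26, and whether ATMG00020 is that RNA was not tested. Without ATMG00020 the share was 0.102 ± 0.00209% in stamens, 0.109 ± 0.00490% in gynoecium and 0.0309 ± 0.000771% in leaf, and the stamen and gynoecium libraries overlapped. Without ATMG00020 and the ribosomal RNA rrn18, the order of the floral organs turned round: the share was 0.0599 ± 0.00123% in stamens, 0.0983 ± 0.00472% in gynoecium and 0.0237 ± 0.000754% in leaf, with no overlap between groups. Leaf remained lowest in each of these sums.

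**Figure D1:**
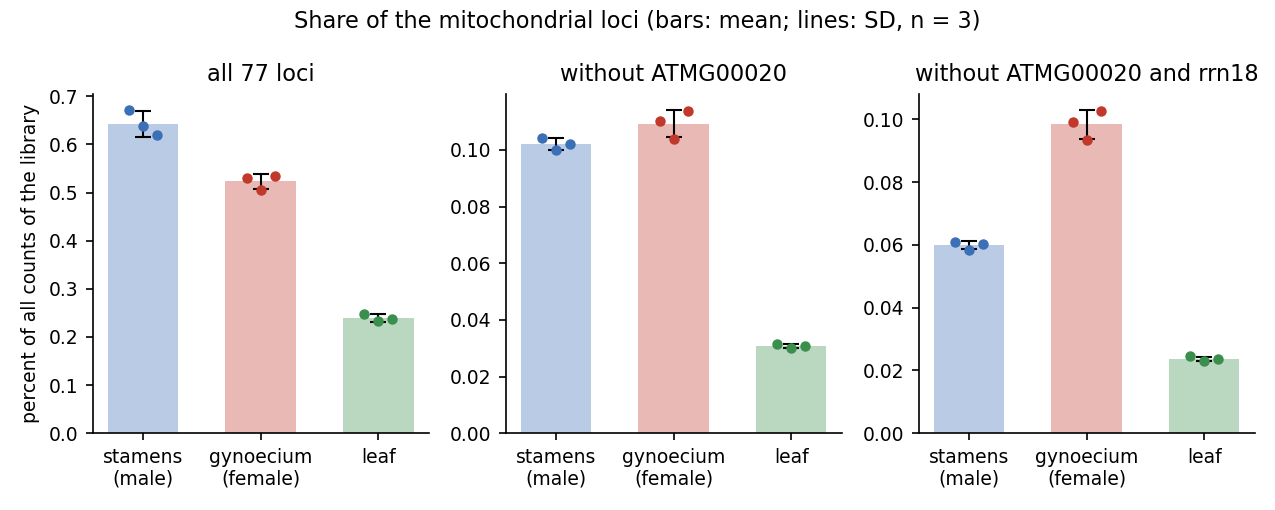
Share of all counts of a library taken by the mitochondrial loci, in percent, for all 77 loci, without ATMG00020, and without ATMG00020 and rrn18. Bars are means of 3 libraries, lines the SD and points the libraries. The stamen bar is highest for all loci (0.643%), while the gynoecium bar is highest once both are left out (0.0983%), and the leaf bar is lowest in each panel.

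Levels between loci were compared per length, as FPKM. They spanned more than the tissues did: 20 members had a mean over 10 FPKM in the 9 libraries and 29 a mean under 1 FPKM. The 4 loci with most counts, ATMG00020, rrn18, rps3 and ATMG00030, held 93.0% of the 742399 mitochondrial counts, while 33 members had fewer than 100 counts in all libraries together. By mean FPKM the leading loci in stamens were ATMG00020 (2106), ATMG00030 (470) and ATMG01390, rrn18 (218). In gynoecium they were ATMG00020 (1614), ATMG00030 (455) and ATMG00090, rps3 (191), and in leaf ATMG00020 (812), ATMG00030 (194) and rrn18 (37.2). The place after these 2 was thus held by an rRNA in stamens and leaf and by the mRNA of a ribosomal protein in gynoecium.

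**Figure D2:**
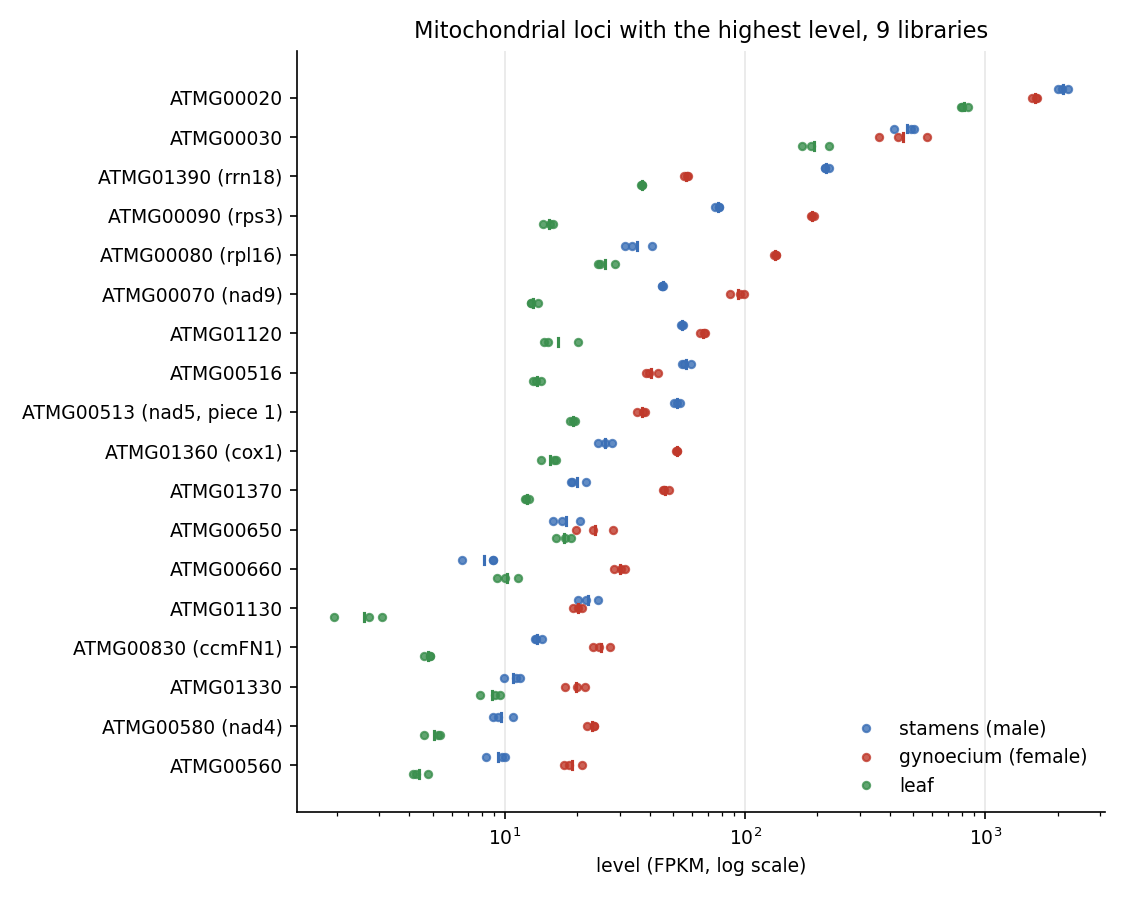
Deposited level of the 18 mitochondrial loci of highest mean FPKM among those counted in all 9 libraries, on a log axis. Points are libraries, short bars the group means, with stamens, gynoecium and leaf drawn one above the other at each locus. Points run from 1.94 to 2212 FPKM. Gynoecium lies right of stamens for rps3, rpl16, nad9 and cox1, and left of stamens for rrn18 and nad5 piece 1.

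Tests were run on counts with edgeR's quasi-likelihood test across the 20827 genes that passed its filter on low counts, with Benjamini-Hochberg adjustment over all of them, and a gene was called at an adjusted p under 0.05. Levels in these comparisons are CPM, counts scaled to a library size adjusted by TMM factors. The factors were 0.956 to 0.966 in stamens, 1.27 to 1.28 in gynoecium and 0.815 to 0.817 in leaf. With library totals alone, which is the scale of FPKM, the log2 fold change of the median gene moves by -0.37 for stamens over gynoecium, 0.23 for stamens over leaf and 0.55 for gynoecium over leaf. A fold change below is therefore relative to the typical gene of the table. Of the 77 members 48 passed the filter. The other 29 had 10 to 69 counts each and together 0.113% of the mitochondrial counts. A locus low in one tissue passed only if it was high in another, so the counts of calls below describe the tested loci and are not a rate for the mitochondrial genome.

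Between stamens and gynoecium, 10 tested members were higher and 26 lower in stamens, and 12 were not called. Over all tested genes 85.3% were called, 46.3% higher and 39.0% lower. The median log2 fold change was -0.46 over the members and 0.09 over all genes. Between stamens and leaf, 31 members were higher and 4 lower in stamens, with 13 not called, where 87.9% of all genes were called, 50.0% higher and 37.9% lower. The medians were 0.95 for the members and 0.23 for all genes. With loci at 0 in leaf set to their lower bound, the members' median was 0.71. Between gynoecium and leaf, 37 members were higher and 2 lower in gynoecium, with 9 not called, where 82.5% of all genes were called, 42.6% higher and 40.0% lower. The medians were 1.25 for the members, 1.24 with loci at their bound, and 0.00 for all genes.

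The 36, 35 and 39 members called in the 3 comparisons were thus a share near or below that over all genes, and the counts describe the direction of the calls. By mean CPM, 21 tested members were highest in gynoecium and lowest in leaf and 12 highest in stamens and lowest in leaf. Another 9 were highest in gynoecium and lowest in stamens, 4 highest in leaf and lowest in gynoecium, and 2 highest in stamens and lowest in gynoecium.

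**Figure D3:**
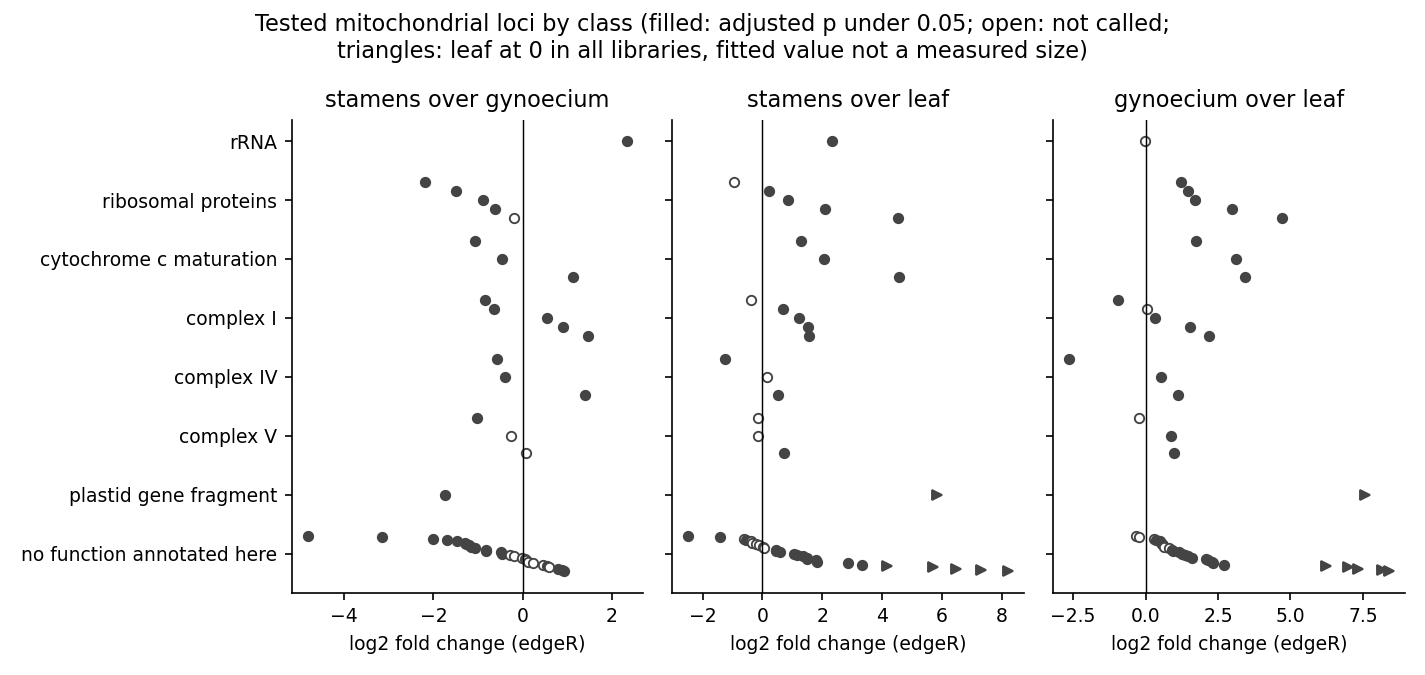
Log2 fold change (edgeR) of the 48 tested mitochondrial loci by class, for stamens over gynoecium, stamens over leaf and gynoecium over leaf. Filled symbols passed an adjusted p under 0.05, open ones did not, and triangles mark loci at 0 in all leaf libraries, whose fitted value is not a measured size. All 4 called ribosomal protein loci lie left of 0 in the first panel, opposite to the rRNA locus at 2.35.

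The 1 ribosomal RNA tested and 4 of the 5 tested ribosomal protein loci differed in opposite directions between the floral organs. The small-subunit ribosomal RNA, rrn18 (ATMG01390), had 449, 435 and 435 CPM in the stamen libraries, 88.3, 84.1 and 86.5 CPM in the gynoecium libraries and 88.3, 87.7 and 88.6 CPM in the leaf libraries. All stamen libraries were far above all others, and the gynoecium and leaf libraries overlapped. The log2 fold change was 2.35 ± 0.0368 (SE, adjusted p = 4.04e-54, edgeR) for stamens over gynoecium and 2.32 ± 0.0386 (adjusted p = 7.03e-53) for stamens over leaf. For gynoecium over leaf it was -0.03 ± 0.0413 (adjusted p = 0.504), and with library totals alone that comparison was called, at 0.61.

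ATMG00020 was also highest in stamens, and it was lowest in leaf. It had 5887, 5630 and 5388 CPM in the stamen libraries, 3301, 3149 and 3294 CPM in the gynoecium libraries and 2659, 2482 and 2527 CPM in the leaf libraries, with no overlap. Its log2 fold changes were 0.79 ± 0.0312 for stamens over gynoecium, 1.14 ± 0.0315 for stamens over leaf and 0.35 ± 0.0312 for gynoecium over leaf (SE, adjusted p at most 1.77e-15, edgeR).

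Of the 5 tested ribosomal protein loci, 4 were lower in stamens than in gynoecium, 4 were higher in stamens than in leaf and 5 were higher in gynoecium than in leaf. The largest by count was rps3 (ATMG00090), which encodes a protein of the small subunit. It had 135, 136 and 130 CPM in the stamen libraries, 254, 250 and 245 CPM in the gynoecium libraries and 29.5, 32.5 and 31.5 CPM in the leaf libraries. The 3 groups stood apart, at log2 fold changes of -0.90 ± 0.0376 for stamens over gynoecium, 2.1 ± 0.0495 for stamens over leaf and 3.0 ± 0.0469 for gynoecium over leaf (SE, adjusted p at most 4.49e-31, edgeR).

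The large-subunit gene rpl16 (ATMG00080) had 17.7, 23.1 and 19.1 CPM in the stamen libraries, 56.9, 55.7 and 57.0 CPM in the gynoecium libraries and 16.4, 16.2 and 19 CPM in the leaf libraries. Gynoecium was above both other tissues, by log2 fold changes of -1.50 ± 0.0702 for stamens over gynoecium and 1.71 ± 0.0749 for gynoecium over leaf. Stamens and leaf overlapped. Their difference, 0.21 ± 0.0883 (adjusted p = 0.023, edgeR), was called, but not without stamen replicate 2, leaf replicate 1 or leaf replicate 2. In the RefSeq annotation rps3 and rpl16 lie on the same strand and share 134 coding bases, so reads from that stretch cannot be told apart. The complex I gene nad9 follows 840 bases beyond rpl16.

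ATMG00560, whose noted chromosome 2 counterpart carries the domains of a large-subunit ribosomal protein, averaged 10.2 ± 0.972 CPM in stamens, 15.6 ± 1.43 in gynoecium and 5.66 ± 0.413 in leaf (SD, n = 3 each), with no overlap. The small-subunit gene rps4 (ATMG00290) was nearly absent from leaf. It had 52, 70 and 83 counts in the stamen libraries, 124, 81 and 115 in the gynoecium libraries and 0, 5 and 2 in the leaf libraries. Both floral organs were above leaf, by log2 fold changes of 4.53 ± 0.403 for stamens and 4.71 ± 0.383 for gynoecium, and overlapped each other. The small-subunit gene rps12 (ATMG00980) had 9, 7 and 1 counts in the stamen libraries, 43, 35 and 29 in the gynoecium libraries and 13, 8 and 6 in the leaf libraries. It was lower in stamens than in gynoecium by a log2 fold change of -2.18 ± 0.400 (SE, adjusted p = 1.57e-06, edgeR), while stamens and leaf overlapped. Another small-subunit gene, rps7 (ATMG01270), had 28 counts in all and was not tested. Of these counts 25 were in gynoecium.

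The make-up of the mitochondrial counts shifted accordingly. Ribosomal proteins held 2.52 ± 0.106% of the mitochondrial counts in stamens, 8.0 ± 0.207% in gynoecium and 1.87 ± 0.134% in leaf. The only member named as an rRNA, rrn18, held 6.57 ± 0.158% in stamens, 2.1 ± 0.0306% in gynoecium and 3.01 ± 0.0966% in leaf. In the counts left without ATMG00020 and rrn18, ribosomal proteins held 27 ± 1.28% in stamens, 42.6 ± 1.97% in gynoecium and 19 ± 1.28% in leaf (SD, n = 3 each). No groups overlapped in any of these shares. Complex I held 20.4 ± 0.384% of the same remainder in stamens, 14.9 ± 0.104% in gynoecium and 19.6 ± 0.258% in leaf, with gynoecium below both others. Complex IV held 7.89 ± 0.660% in stamens, 9.28 ± 0.379% in gynoecium and 12.6 ± 0.841% in leaf, and the loci with no function annotated held 40.4 ± 2.28% in stamens, 28.3 ± 2.51% in gynoecium and 44.1 ± 1.87% in leaf. Set against all mitochondrial counts, the order of these classes changed, and gynoecium was highest in each. Complex I then averaged 1.90% in stamens, 2.79% in gynoecium and 1.94% in leaf, and complex IV 0.735, 1.74 and 1.25%. The loci with no function annotated, without ATMG00020, averaged 3.76, 5.31 and 4.36%. Gynoecium did not overlap the other tissues in these shares.

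**Figure D4:**
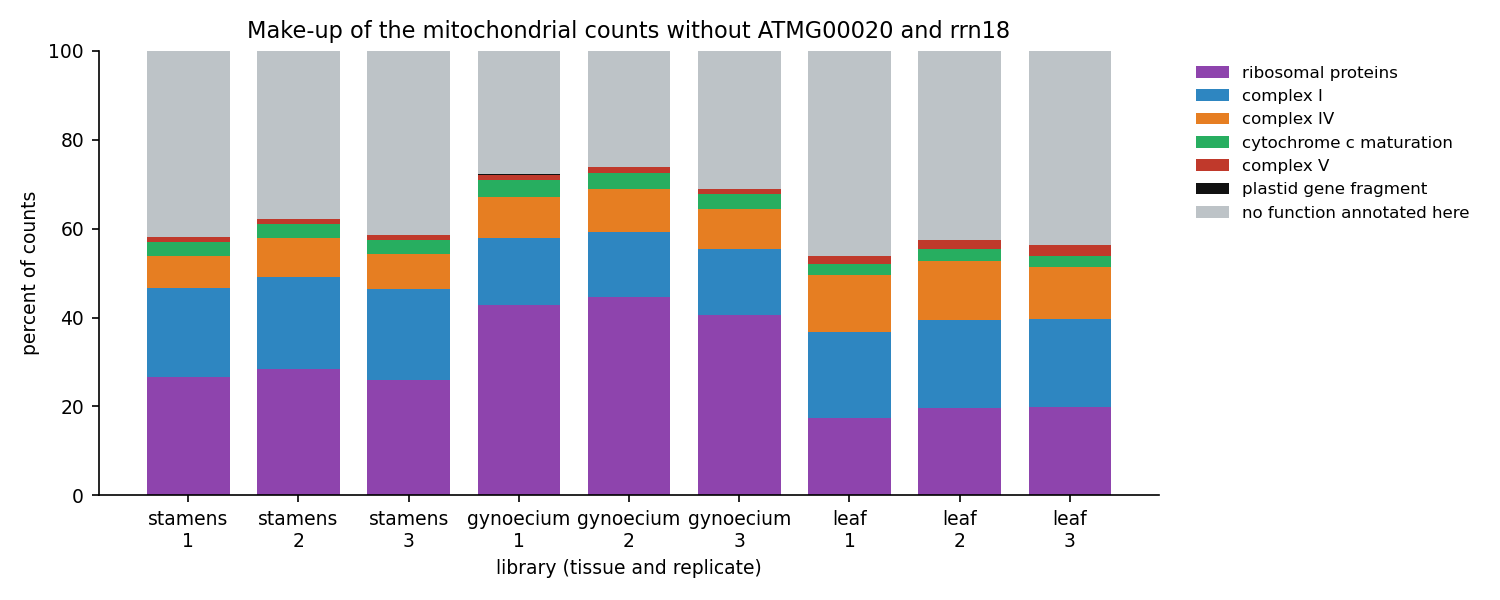
Make-up of the mitochondrial counts left without ATMG00020 and rrn18, in percent, for each of the 9 libraries. Stacked bands stand for the classes of loci, with stamen libraries at left, then gynoecium, then leaf. The ribosomal protein band is tallest in the gynoecium libraries (42.6% on average), against 27% in stamens and 19% in leaf.

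Loci for the attachment of haem to cytochrome c were higher in both floral organs than in leaf: all 3 tested loci were called in both comparisons. Between the floral organs 1 was higher and 2 were lower in stamens. ccmFN1 (ATMG00830), which encodes part of the haem lyase, had 15.9, 16.1 and 17.0 CPM in the stamen libraries, 24.7, 20.8 and 22.1 CPM in the gynoecium libraries and 6.88, 6.48 and 6.84 CPM in the leaf libraries. The groups did not overlap, with log2 fold changes of -0.47 ± 0.0852 for stamens over gynoecium, 1.28 ± 0.113 for stamens over leaf and 1.74 ± 0.104 for gynoecium over leaf (SE, adjusted p at most 1.53e-06, edgeR).

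ATMG00180, noted as a cytochrome c biogenesis protein, had 32, 45 and 26 counts in the stamen libraries, 131, 87 and 79 in the gynoecium libraries and 4, 8 and 8 in the leaf libraries. It showed the same order as ccmFN1, with log2 fold changes of -1.07 ± 0.213 for stamens over gynoecium, 2.06 ± 0.359 for stamens over leaf and 3.13 ± 0.304 for gynoecium over leaf. ccmFN2 (ATMG00960), which encodes the other part of the split lyase subunit, was higher in stamens than in gynoecium at its mitochondrial locus. It had 28, 19 and 19 counts in the stamen libraries, 11, 10 and 20 in the gynoecium libraries and 0, 1 and 1 in the leaf libraries. The level in stamens was 26.9 times that in leaf (95% interval 7.16 to 227.0, exact, covering counting error only), and the level in gynoecium 12.2 times that in leaf (3.18 to 104.4). For stamens over gynoecium the log2 fold change was 1.13 ± 0.347 (SE, adjusted p = 0.00244, edgeR), a call lost with limma on log2 of FPKM plus 0.1 (adjusted p = 0.0619). The gene is copied whole on chromosome 2, and its counterpart there, AT2G07768, had 19 counts in stamens, 72 in gynoecium and 18 in leaf. With the counts of both loci summed, a step added after seeing the data, the level was 1.68 ± 0.288 CPM in stamens, 1.64 ± 0.122 in gynoecium and 0.483 ± 0.264 in leaf (SD, n = 3 each). The summed level in stamens was then 3.47 times that in leaf, and stamens and gynoecium overlapped. ccmB (ATMG00110), of the transport part of the same pathway, had 19 counts in all and was not tested.

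Complex I, the entry point of electrons from NADH, did not move as a block between the floral organs. Of the 5 tested loci placed in it, 3 were higher and 2 lower in stamens than in gynoecium. Against leaf, 4 were higher in stamens with 1 not called, and in gynoecium 3 were higher, 1 was lower and 1 was not called. The class may be incomplete. The RefSeq lengths of nad4L (303 bases) and of piece 3 of nad1 (318 bases) each fit several loci, which stay without a function here. nad9 (ATMG00070), a subunit of the matrix arm, had 26.9, 27 and 27.3 CPM in the stamen libraries, 43.0, 38.9 and 44.3 CPM in the gynoecium libraries and 9.63, 8.97 and 9.04 CPM in the leaf libraries. The groups stood apart, at log2 fold changes of -0.64 ± 0.0667 for stamens over gynoecium, 1.56 ± 0.0912 for stamens over leaf and 2.19 ± 0.084 for gynoecium over leaf.

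nad4 (ATMG00580), a proton-pumping subunit of the membrane arm, had 14.4, 16.8 and 13.8 CPM in the stamen libraries, 27.5, 25.6 and 27.4 CPM in the gynoecium libraries and 9.79, 8.40 and 9.61 CPM in the leaf libraries, in the same order as nad9 and without overlap. nad5, another proton-pumping subunit, is split over several loci, and 2 of its pieces were tested. Piece 1 (ATMG00513) had 78.1, 76.8 and 80.8 CPM in the stamen libraries, 42.6, 40.1 and 43.4 CPM in the gynoecium libraries and 34.9, 33.0 and 34.0 CPM in the leaf libraries. Stamens were thus above both other tissues, with log2 fold changes of 0.90 ± 0.0514 over gynoecium and 1.21 ± 0.057 over leaf (SE, adjusted p at most 2.25e-24, edgeR).

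Piece 3 of nad5 (ATMG00060) was counted far less but also stood highest in stamens. It had 64, 53 and 68 counts in the stamen libraries, 18, 35 and 38 in the gynoecium libraries and 12, 21 and 19 in the leaf libraries. Its log2 fold changes were 1.47 ± 0.237 for stamens over gynoecium and 1.53 ± 0.267 for stamens over leaf. Both pieces belong to 1 mRNA, but per length they differed: piece 1 averaged 52.1 FPKM in stamens, 37.1 in gynoecium and 19.2 in leaf. Piece 3 averaged 6.51 FPKM in stamens, 3.13 in gynoecium and 1.89 in leaf. Piece 1 is copied whole on chromosome 2, and 3.71% of its 50-base stretches occur once in the reference assembly. No copied base was found in piece 3. The part of this in the difference was not tested.

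The second piece of nad2 (ATMG01320) was lower in gynoecium than in leaf by a log2 fold change of -0.94 ± 0.257 (adjusted p = 0.000727, edgeR), a call lost with library totals and with limma on FPKM. It had 38, 40 and 25 counts in the stamen libraries, 39, 19 and 38 in the gynoecium libraries and 29, 46 and 35 in the leaf libraries. Stamens and gynoecium overlapped, and their called difference of 0.55 ± 0.26 (adjusted p = 0.0443) held under 9 of 20 other settings. It was lost with upper quartile factors, library totals, DESeq2, limma at either pseudocount, and without stamen replicate 1, stamen replicate 2, gynoecium replicate 2 or leaf replicate 3, with adjusted p from 0.0521 to 0.609 over these. The chromosome 2 counterpart AT2G07689 had 32 counts in stamens, 64 in gynoecium and 24 in leaf, and with both loci summed all 3 tissues overlapped. The loci noted as NADH dehydrogenase 1A (ATMG01275, 68 counts) and NADH dehydrogenase 3 (ATMG00990, 39 counts), and nad7 (ATMG00510, 24 counts), were not tested. nad7 was at 0 in all leaf libraries.

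In complex IV, the terminal oxidase, the catalytic subunit cox1 (ATMG01360) had 40.0, 46.5 and 43.2 CPM in the stamen libraries, 64.8, 64.1 and 64.7 CPM in the gynoecium libraries and 31.0, 31.5 and 27.5 CPM in the leaf libraries. The groups did not overlap. The log2 fold changes were -0.58 ± 0.0559 for stamens over gynoecium, 0.53 ± 0.0657 for stamens over leaf and 1.11 ± 0.0611 for gynoecium over leaf (SE, adjusted p at most 9.24e-11, edgeR). cox2 (ATMG00160), which takes electrons from cytochrome c, averaged 4.83 ± 0.285 CPM in stamens, 6.32 ± 0.165 in gynoecium and 4.39 ± 0.215 in leaf (SD, n = 3 each). It was lower in stamens than in gynoecium at -0.39 ± 0.144 (adjusted p = 0.0119), a call lost without stamen replicate 3, and stamens and leaf overlapped.

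ATMG01280, noted as similar to oxidase subunit II, was the only tested locus of this class highest in leaf. It had 16, 16 and 13 counts in the stamen libraries, 8, 6 and 9 in the gynoecium libraries and 38, 20 and 29 in the leaf libraries. The log2 fold changes were 1.40 ± 0.412 for stamens over gynoecium, -1.24 ± 0.319 for stamens over leaf and -2.64 ± 0.359 for gynoecium over leaf (SE, adjusted p at most 0.00156, edgeR). Its chromosome 2 counterpart AT2G07695 had 5 counts in stamens, 64 in gynoecium and 7 in leaf. With both loci summed the level was 0.987 ± 0.211 CPM in stamens, 1.25 ± 0.236 in gynoecium and 2.30 ± 0.673 in leaf (SD, n = 3 each). Leaf remained highest in this sum, the log2 ratio of gynoecium over leaf was -0.87, and stamens and gynoecium overlapped. The locus noted as oxidase subunit 3, ATMG00730, had 35 counts and was not tested.

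Of the 3 tested loci of complex V, which makes ATP, 1 was lower in stamens than in gynoecium, 1 higher in stamens than in leaf and 2 higher in gynoecium than in leaf. atp4 (ATMG00640), of the stalk of the enzyme, had 2.03, 2.65 and 2.03 CPM in the stamen libraries, 2.01, 2.0 and 2.38 CPM in the gynoecium libraries and 2.60, 1.99 and 2.85 CPM in the leaf libraries. All groups overlapped and no comparison was called, with adjusted p from 0.39 to 0.774 (edgeR). atp1 (ATMG01190), the alpha subunit of the catalytic head, averaged 3.08 ± 0.256 CPM in stamens, 3.66 ± 0.406 in gynoecium and 1.87 ± 0.300 in leaf. The log2 fold changes over leaf were 0.71 ± 0.228 in stamens and 0.96 ± 0.213 in gynoecium. Between the floral organs the value of -0.25 ± 0.184 (adjusted p = 0.200) was not called, and it was called with library totals, at -0.66. atp1 is copied whole, and most counts of the pair lie at its chromosome 2 counterpart AT2G07698. With both loci summed the level was 175 ± 2.74 CPM in stamens, 178 ± 3.27 in gynoecium and 130 ± 2.13 in leaf (SD, n = 3 each). The summed log2 ratios over leaf were 0.42 in stamens and 0.45 in gynoecium, and the floral organs overlapped.

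ATMG00480, noted as ATPase subunit 8, had 26, 12 and 27 counts in the stamen libraries, 59, 66 and 57 in the gynoecium libraries and 10, 25 and 24 in the leaf libraries. Gynoecium was above both others, by -1.03 ± 0.262 for stamens over gynoecium and 0.88 ± 0.269 for gynoecium over leaf. The loci noted as ATP synthase subunit 9, the ring of the enzyme, were ATMG01080 with 47 counts and ATMG01090 with 20, neither tested.

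Among the 48 loci with no function annotated, 27 were tested. Of these 4 were higher and 14 lower in stamens than in gynoecium, 16 higher and 3 lower in stamens than in leaf, and 21 higher and 0 lower in gynoecium than in leaf. The shares called, 66.7, 70.4 and 77.8%, were below the 85.3, 87.9 and 82.5% over all tested genes. The second highest locus by FPKM, ATMG00030, had 169, 141 and 165 CPM in the stamen libraries, 110, 91.6 and 145 CPM in the gynoecium libraries and 88.5, 68.4 and 74.3 CPM in the leaf libraries. Its gynoecium libraries were spread widely and reached into the range of the stamen libraries, and the difference of 0.46 ± 0.181 was not called (adjusted p = 0.051, edgeR). It was called with DESeq2 size factors in edgeR (adjusted p = 0.0468), with DESeq2 and without gynoecium replicate 3 (adjusted p = 0.00513). Stamens were higher than leaf by 1.04 ± 0.199 (adjusted p = 0.00202). For gynoecium over leaf the value of 0.59 ± 0.199 was called (adjusted p = 0.0297), but not without gynoecium replicate 1, leaf replicate 2 or leaf replicate 3.

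ATMG01120 averaged 15.6 ± 0.110 CPM in stamens, 14.3 ± 0.382 in gynoecium and 5.55 ± 1.06 in leaf (SD, n = 3 each), above leaf in both floral organs. ATMG01130, at 7.39 ± 0.713 CPM in stamens and 5.05 ± 0.236 in gynoecium against 1.01 ± 0.228 in leaf, was among the loci with the largest called differences from leaf: 2.85 ± 0.217 in stamens and 2.30 ± 0.223 in gynoecium. ATMG00660 was among the few lower in stamens than in leaf, at 3.83 ± 0.612 CPM in stamens, 10.6 ± 0.588 in gynoecium and 5.63 ± 0.580 in leaf. That difference, -0.56 ± 0.166, was not called with library totals.

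ATMG00150 was nearly absent from stamens. It had 1, 1 and 1 counts in the stamen libraries, 52, 31 and 46 in the gynoecium libraries and 3, 8 and 4 in the leaf libraries. The level in stamens was 0.0318 times that in gynoecium (exact 95% interval 0.00647 to 0.0950) and 0.163 times that in leaf (0.0303 to 0.577), the intervals covering counting error only. The call against leaf was lost without leaf replicate 2. ATMG01260 was likewise mainly a gynoecium locus, with 1, 2 and 3 counts in the stamen libraries, 32, 22 and 23 in the gynoecium libraries and 0 in each leaf library.

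In all, 43 members were counted in each of the 9 libraries and 54 in at least 1 library of each tissue. Leaf had the most at 0: 20 members in all leaf libraries, 6 of them tested, against 5 in stamens and 4 in gynoecium. Leaf also had the fewest of the 20827 tested genes counted. A pair of libraries together counted 17598 to 17603 of them in leaf, 18393 to 18404 in gynoecium and 20227 to 20238 in stamens. A locus could also become a member through the floral libraries alone. Leaf loci at 0 could still be present at up to 0.214 to 0.229 CPM, the level of 3 counts in a leaf library. Of the 20, 15 were counted in both floral organs, 2 in stamens alone and 3 in gynoecium alone. Those counted in stamens alone were ATMG00550 (10, 9 and 9 counts) and ATMG00710 (8, 7 and 6 counts). Those in gynoecium alone were ATMG00010 (10, 11 and 17 counts), ATMG01410 (3, 3 and 8 counts) and ATMG01340 (4, 7 and 0 counts). ATMG00450 was counted in leaf alone, with 4, 6 and 3 counts.

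The most counted of the loci absent from leaf were of transfer RNA length. ATMG09950, of 75 bases, had 39, 36 and 30 counts in the stamen libraries and 53, 32 and 52 in the gynoecium libraries, and was at least 9.49-fold higher in stamens and at least 9.02-fold higher in gynoecium than in leaf, against 3 counts per leaf library. ATMG00380, of 72 bases, had 23, 14 and 19 counts in the stamen libraries and 60, 47 and 55 in the gynoecium libraries, and was at least 5.07-fold higher in stamens and at least 10.7-fold higher in gynoecium than in leaf. Another, ATMG00100 (73 bases), had 67 counts, also none in leaf. The RefSeq mitochondrial tRNA genes, 22 in number, are 71 to 88 bases long and 5 members fall in that range, but none matched 1 tRNA alone, so they are not named here. How RNAs this short pass through library preparation was not tested.

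ATMG00280, noted as carrying a domain of the large chain of Rubisco, the carbon-fixing enzyme of the chloroplast, is a stretch of plastid DNA within the mitochondrial genome. It had 5, 7 and 8 counts in the stamen libraries, 28, 31 and 33 in the gynoecium libraries and 0 in each leaf library. It was thus absent from the tissue in which chloroplast loci took the largest share of the counts. Stamens were lower than gynoecium by -1.73 ± 0.378 (SE, adjusted p = 3.71e-05, edgeR), and gynoecium was at least 6.10-fold higher than leaf.

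Much of the mitochondrial genome has a second copy in the nucleus, since a stretch of it is inserted in chromosome 2 of this accession. In the TAIR10.1 assembly, 72.8% of the mitochondrial bases have a copy of at least 98% identity over at least 100 bases on chromosome 2, and 28.9% of the 50-base stretches occur once in the assembly. The files rest on TAIR10, and how reads with several matches were treated is not given in the sources used here. Of the members named by length, rrn18, nad9, cox1, cox2, atp4, ccmB and piece 3 of nad5 had no copied base found by BLAST. rps3 had 14.3% and rpl16 40.6%, and the other 10 were copied whole. These were atp1, ccmFN1, ccmFN2, piece 2 of nad2, nad4, piece 1 of nad5, nad7, rps4, rps7 and rps12. For cox2, however, only 74.2% of the 50-base stretches and 79.7% of the 100-base stretches occur once in the assembly. Part of cox2 thus recurs, and its copied share is set too low. Among protein genes, the 8 copied under 50% had mean levels from 0.191 to 94.2 FPKM (median 19.1), and the 10 copied by at least 90% had 0.127 to 36.1 FPKM (median 2.31).

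**Figure D5:**
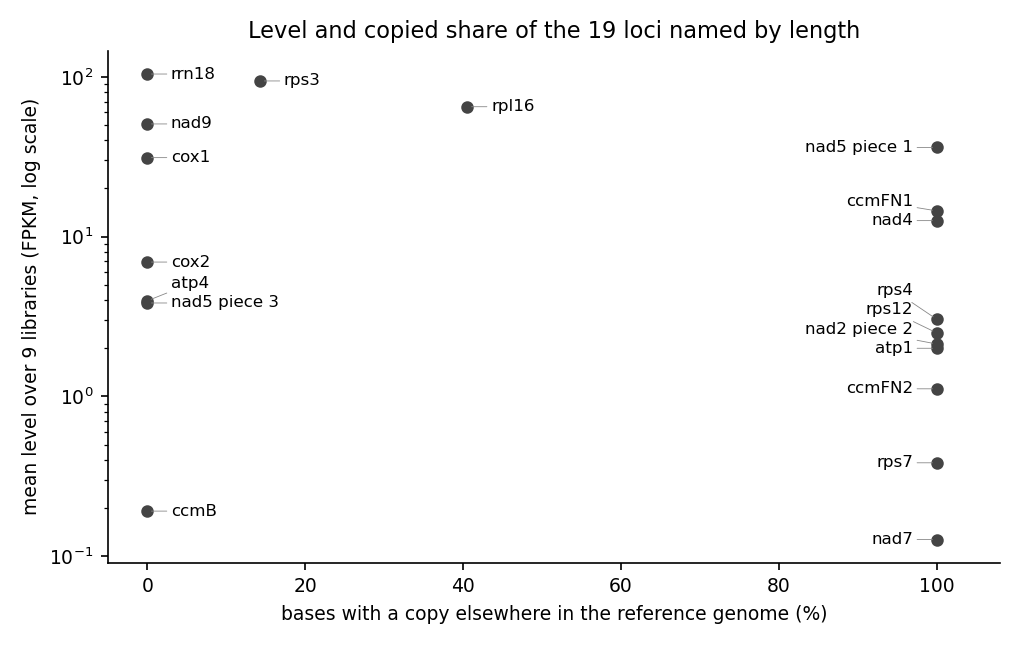
Mean level over the 9 libraries (FPKM, log axis) of the 19 members named by length against the percent of their bases with a copy elsewhere in the TAIR10.1 assembly. Each point is 1 locus. The loci with no copied base found by BLAST run from ccmB at 0.191 FPKM to rrn18 at 104 FPKM. Those copied whole run from nad7 at 0.127 FPKM to piece 1 of nad5 at 36.1 FPKM. cox2 is drawn with no copied base, although part of it recurs in the assembly.

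At some genes the counts lie at the nuclear copy. AT2G07698, noted as the counterpart of atp1, had 8674 counts in stamens, 12000 in gynoecium and 5290 in leaf, while atp1 itself had 484 over all libraries. AT2G07727, the counterpart of the apocytochrome b locus with 0 counts, had 672 in stamens, 722 in gynoecium and 228 in leaf. Of 17 mitochondrial loci at 0 with a counterpart on chromosome 2, 12 had a counterpart with counts. Of 23 pairs with a member, the mitochondrial locus had more counts in 16 and the nuclear one in 6. The part of this in the levels above was not tested. A member had a known copy if at least 90% of the bases of its named gene were copied, or a chromosome 2 counterpart was noted. Loci without a length match were not checked by sequence, and rps3 and rpl16 fall below that cut. The set without a known copy can therefore still hold copied bases. Among the 30 tested members with no known copy, 6 were higher and 16 lower in stamens than in gynoecium. Against leaf, 20 were higher and 3 lower in stamens, and 22 higher and 0 lower in gynoecium. For stamens over gynoecium, stamens over leaf and gynoecium over leaf, 22, 23 and 22 of these 30 were thus called. Over all tested genes 85.3, 87.9 and 82.5% were called.

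Nuclear genes for the same complexes and for upkeep of the mitochondrial genome were set beside these loci, in 9 lists of 101 genes, of which 97 were tested. Between stamens and gynoecium 56 were higher and 28 lower in stamens (median log2 fold change 0.31, beside 0.09 over all genes). With library totals alone 36 were higher and 47 lower (median -0.10), where of all tested genes 7243 were higher and 10962 lower (median -0.29). The counts thus moved with those of all genes, and the median of the lists was above that of all genes under both scalings. Between stamens and leaf 39 were higher and 41 lower in stamens (median -0.03, beside 0.23 over all genes). With library totals 51 were higher and 27 lower (median 0.20), where of all tested genes 11584 were higher and 6819 lower (median 0.46). Between gynoecium and leaf 30 were higher and 57 lower in gynoecium (median -0.39, beside 0.00 over all genes). With library totals 53 were higher and 25 lower (median 0.22), where of all tested genes 11804 were higher and 5731 lower (median 0.55).

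Genes for mitochondrial RNA synthesis and processing were mostly lower in stamens than in gynoecium (3 higher, 14 lower of 19, and 1 and 15 with library totals) and mostly higher in gynoecium than in leaf (15 higher, 2 lower, and 17 and 1 with library totals). RUG3, needed for splicing of nad2, averaged 5.34 ± 0.820 CPM in stamens, 15.5 ± 0.514 in gynoecium and 2.67 ± 0.344 in leaf. PMH1, an RNA helicase, averaged 17.9 ± 0.519 CPM in stamens, 27.5 ± 1.38 in gynoecium and 2.50 ± 0.495 in leaf (SD, n = 3 each). The mitochondrial polyribonucleotide nucleotidyltransferase AT5G14580, which degrades RNA, averaged 4.67 ± 0.943 CPM in stamens and 10.7 ± 0.996 in gynoecium and had no count in leaf, at least 48.9-fold higher in gynoecium than in leaf. These 3 genes kept the order of rps3, with gynoecium highest and leaf lowest. Other genes of the list went the other way. EMB2730 was called higher in stamens than in gynoecium and lower in gynoecium than in leaf, and RPF2 lower in stamens than in leaf.

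Genes for mitochondrial DNA maintenance were also mostly lower in stamens than in gynoecium (1 higher and 7 lower of 8, and 0 and 8 with library totals). ATWHY2, a DNA-binding protein of mitochondria, averaged 1.66 ± 0.323 CPM in stamens, 7.39 ± 0.451 in gynoecium and 1.76 ± 0.418 in leaf. MSH1 was the gene of this list called higher in stamens than in gynoecium. The genes of alternative respiration, most of whose products bypass the proton-pumping complexes, were mostly higher in stamens than in gynoecium (10 higher and 1 lower of 11 with either scaling). The alternative oxidase AOX1B averaged 15.9 ± 1.25 CPM in stamens and had no count in gynoecium or leaf, so that stamens were at least 122-fold higher than gynoecium and at least 72.8-fold higher than leaf. NDB1, an external NADPH dehydrogenase, was the lower one, at 13.4 ± 0.201 CPM in stamens, 63.9 ± 3.12 in gynoecium and 37.2 ± 2.07 in leaf.

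Of the nuclear genes listed for complex I, 9 of 15 were called higher in stamens than in gynoecium and 4 lower. For complex II 7 of 7 were higher, and for complex III with cytochrome c 8 of 9. For complex IV 4 of 8 were higher and 2 lower, and for complex V 5 of 8 were higher. In the list of the citrate cycle and outer membrane 9 of 12 were higher and 0 lower. With library totals, which move all genes toward lower values in this comparison, complex I had 3 higher and 9 lower, complex II 7 and 0, complex III with cytochrome c 5 and 3, complex IV 1 and 4, complex V 3 and 3, and the citrate cycle and outer membrane 6 and 4. The median of each of these 6 lists was above that of all genes under both scalings. In stamens against leaf, complex I had 2 higher and 10 lower, complex II 3 and 0, and complex III with cytochrome c 5 and 3. Complex IV had 1 and 6, complex V 2 and 5, and the citrate cycle and outer membrane 6 and 4. Of all tested genes 50.0% were higher and 37.9% lower in that comparison. With library totals complex I had 5 and 7 against leaf, complex IV 1 and 3, and complex V 3 and 3. SDH1-1, the flavoprotein of complex II, averaged 531 ± 13.1 CPM in stamens, 168 ± 5.30 in gynoecium and 209 ± 5.22 in leaf. The cytochrome c1 gene AT3G27240 averaged 287 ± 4.10 CPM in stamens, 113 ± 0.383 in gynoecium and 156 ± 1.77 in leaf. The citrate synthase gene ATCS averaged 282 ± 12.1 CPM in stamens, 81.8 ± 5.73 in gynoecium and 155 ± 1.54 in leaf. At these genes gynoecium was lowest, but this did not hold for all listed genes. GAMMA CA1 of the complex I list and AT1G02410 of the complex IV list were called higher in gynoecium than in stamens and than in leaf. Of the mitochondrial genome, cox1, nad4, nad9 and rps3 were highest in gynoecium, while ATMG00020, rrn18 and both tested pieces of nad5 were highest in stamens.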

How the data were processed

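RNA was extracted with Trizol and made into Illumina libraries, per the labels' protocols. The deposited table of raw counts per locus and the deposited FPKM table were made by the authors, and the submitters' processing notes name Bowtie2 2.2.3, HISAT2 2.1.0, TopHat2, HTSeq 0.6.0 and TAIR10 without roles; strand and the treatment of reads with several matches are not given in the sources used here.

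The members, lists and tests were chosen with earlier results of these data known. Counts were filtered by group, scaled with TMM and fitted with 1 mean per group over all 9 libraries by edgeR 4.0.16 (robust quasi-likelihood, biological coefficient of variation 3.62%) in R 4.3.3, with Benjamini-Hochberg adjustment over 20827 genes. FPKM from the deposited table served for levels between loci and for names by length. Names come from the TAIR10.1 annotation, copies from BLAST of that assembly against itself. Named loci are, per class and comparison, the called locus of largest change in each direction and that of highest FPKM; for loci without function, the 3 of highest FPKM and the 2 of largest change in each direction with at least 20 counts per library in the higher tissue. Other loci were chosen after their values were seen. A fold against a tissue at 0 is a lower bound against 3 counts per library. Same-numbered libraries were not paired in their deviations (correlations from -0.05 to 0.05). Shares summed over loci have no p-value here. Of these steps, only the edgeR fit was tested on simulated counts.

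Alternatives were other scalings, DESeq2 1.42.0, limma 3.58.1 on log2 of FPKM plus 1 or 0.1, no filter, a replicate block, and each library left out. Python 3.11.15, pandas 2.3.3, numpy 2.4.6 and matplotlib 3.10.9 were used.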

Additional observations from a re-analysis of the deposited data

How the results depend on the processing

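Each library was left out in turn, and the called loci then numbered 33 to 38 for stamens over gynoecium (9 to 12 higher, 24 to 27 lower), 32 to 36 for stamens over leaf (29 to 31 higher, 3 to 6 lower) and 38 to 40 for gynoecium over leaf (36 to 38 higher, 2 to 3 lower), beside 36, 35 and 39 with all libraries. The log2 ratios of the mitochondrial share ran from 0.26 to 0.32, 1.39 to 1.45 and 1.11 to 1.16. Libraries share only a number, and a replicate block gave 36, 35 and 39 calls. For stamens over gynoecium the block called ATMG00030 (adjusted p = 0.0243) and did not call ATMG01320 (adjusted p = 0.0643), and it changed no other call of a named locus. Depth limits the 29 untested loci and those at 0 in a tissue. The cause of the changes below was not tested. Settings marked as added were chosen after seeing the data.

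Without the filter 16 loci were higher in stamens than in gynoecium, and with the mitochondrial total as library size 3. Against leaf that total left 16 higher and 22 lower in stamens, and without ATMG00020 in it (added) 12 and 27. In gynoecium it left 8 lower than in leaf, and without ATMG00020 20 higher and 14 lower. The loci lower in gynoecium than in leaf were 1 with library totals, 5 with DESeq2, 1 with limma at either pseudocount and 5 without the filter. Among the 30 tested loci with no known copy 22 (6 higher, 16 lower), 23 (20 higher) and 22 (22 higher, 0 lower) were called. Under the mitochondrial total, which sets their sum equal, the log2 fold change of stamens over leaf turned to -0.051 for ATMG00020, -0.14 for ATMG00030, -0.98 for rpl16, -0.34 for ATMG00560, -0.50 for nad4, -0.47 for atp1, -0.60 for ATMG01200 and -0.66 for cox1. That of gynoecium over leaf turned to -0.14 for ATMG00020 and -0.18 for ATMG00513, and that of stamens over gynoecium to -0.16 for ATMG01130 and -0.15 for ATMG01320.

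The log2 ratio of the mitochondrial share (0.30, 1.43 and 1.13) became -0.10, 1.73 and 1.83 without ATMG00020, -0.72, 1.34 and 2.06 also without rRNA, and 0.71, 1.19 and 0.48 on TMM-scaled sizes (all added). Over nuclear counts that of gynoecium over leaf was 1.06. Without ATMG00020 and rRNA in the total (added), the class shares of stamens over gynoecium had log2 ratios of 0.46 for complex I, -0.23 for IV, -0.11 for V, -0.17 for cytochrome c maturation, -1.44 for the plastid fragment and -0.66 for ribosomal proteins. Those of gynoecium over leaf were -0.40, -0.45, -0.80, 0.48 for cytochrome c maturation and 1.17 for ribosomal proteins, and complex I was at 0.055 for stamens over leaf. As sums of FPKM, complex I was at 0.049 (stamens over leaf) and 0.60 (gynoecium over leaf), and ribosomal proteins were at 0.0082 and 1.60. For stamens over gynoecium and for gynoecium over leaf, complex IV was at -1.02 and 0.20, cytochrome c maturation at -0.92 and 1.20, rRNA at 1.84 and -0.70, and loci without function at 0.11 and -0.16. Without rRNA in the total the loci without function were at 0.12, -0.00395 and -0.13. With library totals the nuclear genes numbered 36 higher and 47 lower (stamens over gynoecium), 27 lower (stamens over leaf), and 53 higher and 25 lower (gynoecium over leaf).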
